A study of Mus musculus with 12 samples.

Results

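Collagens and other stromal matrix genes were followed in RNA from gut epithelial cells of mice with 1 deleted copy of the large isoform of Chd8, a chromatin-remodelling factor. The 10 genes were chosen by symbol from the deposited table of 14244 gene rows, and all 10 were found: the fibrillar collagens Col1a1, Col1a2 and Col3a1, the basement membrane collagens Col4a1 and Col4a2, the microfibrillar collagen Col6a1, and Sparc, Dcn, Vim and Fn1. The study compared WT with Chd8L+/- male littermates, called CHD8+/- in the labels, all C57BL/6 mice of 8 weeks. Chd8L+/- mice lack exons of Chd8 on 1 allele in every tissue, and the WT littermates carry 2 intact copies. Each of the 5 WT and 7 Chd8L+/- libraries came from poly(A) RNA of 1 mouse, and the labels number the libraries without naming a litter or day. The cells had been shaken off the gut wall with a chelator and a reducing agent, a separation that enriches epithelium and does not sort it.

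Most matrix genes are made by mesenchymal cells. Fibroblasts and smooth muscle of the lamina propria secrete type I, type III and type VI collagen together with decorin, and type IV collagen forms the sheet on which endothelium and epithelium rest. Procollagen chains are hydroxylated and folded in the endoplasmic reticulum, assembled in threes, trimmed outside the cell and cross-linked. Fibronectin is different in that many cell types, epithelial and myeloid cells included, can transcribe Fn1.

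The libraries held 15691662 to 20761315 recovered reads each. On the first principal component of all genes, which held 39.7% of the variance, WT replicate 2 lay at 41.0. The other 4 WT libraries lay between -67.5 and -26.2 and the Chd8L+/- libraries between 0.26 and 42.7. Calls are therefore given with and without WT replicate 2, a choice that rests on these same values. Leaving it out removes the WT library nearest to the Chd8L+/- libraries on this component. The share of all genes past an adjusted p of 0.05 then went from 0.0234% to 27.6% (limma), so calls without it are no independent support. Chd8 itself averaged 953 ± 85.5 normalized counts (SD, n = 5) in WT against 1297 ± 123 (SD, n = 7), a direction opposite to that of a lost copy, and reads counted over a whole gene cannot show the deleted exons. By RT-PCR in gut epithelial cells, the paper found the deleted exons lower and the first exon higher in Chd8L+/- mice. It proposes that the higher first exon is an attempt at compensation. The labelled tissue was borne out by the defining epithelial markers, of which Epcam had between 27667 and 52974 and Vil1 between 26439 and 59265 normalized counts.

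Of the 10 genes, 9 had higher and 1 had lower mean log2 levels in Chd8L+/- libraries, where 51.4% of all genes tested were higher. The gene that went the other way was Fn1. None passed an adjusted p of 0.05 (limma on log2(normalized count + 1), Benjamini-Hochberg over 12808 genes with a mean of at least 10), where 0.0234% of all genes tested did. At an unadjusted p of 0.05 or less, 6 of the 10 were counted, 5 of them higher and 1 lower, beside 24.3% of all genes tested, 12.5% higher and 11.8% lower. A log2 difference (Chd8L+/- minus WT, in the mean of log2(normalized count + 1)) of 1 or more was found for 8 of the 10, beside 2.94% of all genes, and the median over the 10 genes was 1.90 beside 0.01 over all genes. The mean of at least 10 was taken over all 12 libraries. Col6a1 (WT mean 5.10) and Col4a2 (7.67) reached it only through the Chd8L+/- libraries, so their differences rest on few WT reads. With 5 added before the log in place of 1, the median was 1.53, and Col6a1 had 1.71 instead of 2.67 (limma). In none of the 10 were the genotypes free of overlap, beside 0.515% of all genes. A change in the number of cells of a type and a change in RNA per cell, in either direction, cannot be told apart in these bulk samples.

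**Figure D1:**
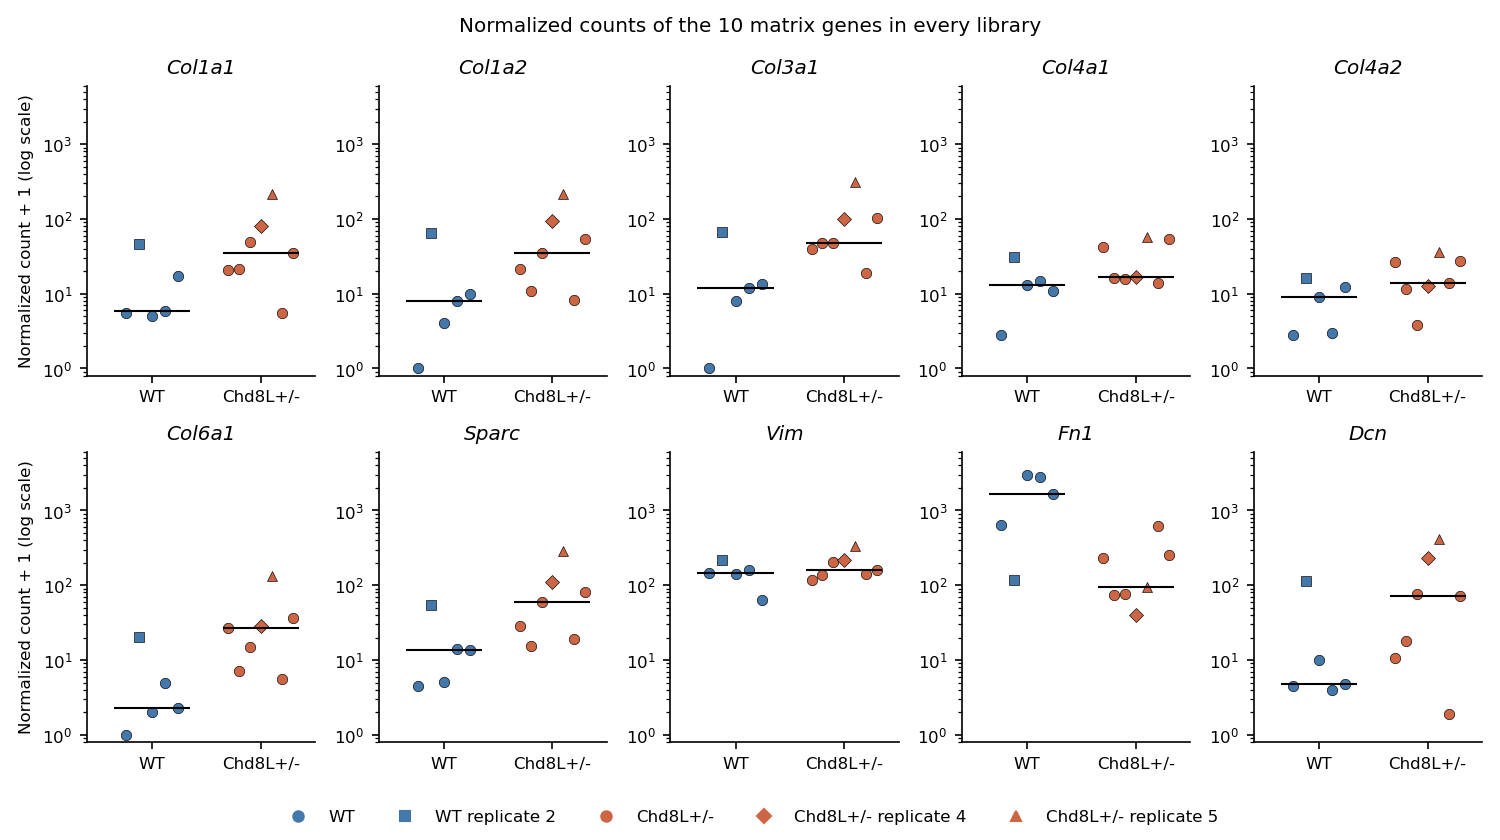
Each panel plots 1 gene, with genotype on the horizontal axis and the normalized count plus 1 on a log axis. Each point is a library, and lines mark the median of the 5 WT or 7 Chd8L+/- libraries. WT replicate 2, drawn as a square, is the highest WT library in 9 of the 10 genes, and Chd8L+/- replicate 5, drawn as a triangle, is the highest of all libraries in the same number.

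Type III collagen, whose single chain forms thin reticular fibres, had the largest difference among the 9 genes that were higher in Chd8L+/- libraries. Col3a1 (chromosome 1, 45311538 to 45349706, plus strand, GRCm38) had 0, 64.9, 7.06, 10.9 and 12.5 normalized counts in WT replicates 1 to 5, and 18.2, 46.7 and 308 as the lowest, median and highest of the 7 Chd8L+/- libraries. All 7 Chd8L+/- libraries were above the WT median, and 3 were above WT replicate 2, the highest WT library. The difference of 2.77 on the log2 scale (standard error 0.86, unadjusted p = 0.00605, adjusted p = 0.122, limma) was rank 2 among all 12808 genes in order of this measure. Without WT replicate 2, all 7 Chd8L+/- libraries lay above the WT libraries left, the log2 difference was 3.46, and the gene passed with an adjusted p of 0.00803 (limma). Leaving out WT replicate 1, which had 0, gave instead a log2 difference of 1.95 with an adjusted p of 0.173 (limma). The zero in WT replicate 1 allows up to 2.67 normalized counts, or 3 reads, for counting error only.

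The promoter of Col3a1 is shown because this gene had the largest difference among the collagens and because the annotation places no exon in the stretch. RefSeq's start on GRCm38.p6 has these 250 bases before it, at chr1:45311288-45311537 on the plus strand, with the letters TATAAA in capitals, 117 bases before the first base of the gene.

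Col3a1: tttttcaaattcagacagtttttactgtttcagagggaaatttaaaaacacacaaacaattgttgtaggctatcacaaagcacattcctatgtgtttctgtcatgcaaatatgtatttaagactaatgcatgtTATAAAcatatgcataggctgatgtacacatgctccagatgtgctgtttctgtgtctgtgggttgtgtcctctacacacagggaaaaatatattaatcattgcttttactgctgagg

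Promoter windows of this length were found for 7 of the 10 genes, and 4 sets of letters were searched on both strands. Only the Col3a1 window is free of annotated exons, since 250 of 250 bases were exonic in the windows of Vim, Col4a1 and Col4a2, 238 in that of Sparc, 127 in that of Col1a2 and 124 in that of Col6a1. TATAAA stood in 2 of the 7 windows, those of Col3a1 and Vim, and in 12.4% of 32851 windows of all genes. CCAAT stood in 4 of the 7 (Col1a2, Col4a1, Col4a2 and Vim) and in 33.8% of all windows, GGGCGG in 2 (Col1a2 and Col4a2) and in 32.7%, and TGACTCA in 1 (Col6a1) and in 4.46%. The Sparc window held none of the 4, and no set of letters was shared by all 7.

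The 2 chains of type I collagen, the main fibre of the gut wall, moved with Col3a1 from library to library. Col1a1 (chromosome 11, 94936224 to 94953042, plus strand) had 4.44, 45.7, 4.03, 4.96 and 16.3 normalized counts in the 5 WT libraries, and 4.55, 34.4 and 216 as lowest, median and highest in Chd8L+/- libraries. Here 6 of 7 Chd8L+/- libraries lay above the WT median and 3 above WT replicate 2, so the groups overlapped. Its log2 difference of 1.76 (standard error 0.80) had an unadjusted p of 0.0452 and an adjusted p of 0.197 (limma).

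Col1a2 (chromosome 6, 4504814 to 4541544, plus strand) had 0, 63.9, 3.02, 6.94 and 8.78 normalized counts in WT and 7.28, 34.5 and 214 as lowest, median and highest in Chd8L+/- libraries. All 7 Chd8L+/- libraries were above the WT median and 2 above WT replicate 2. On the log2 scale the genotypes differed by 2.30 (standard error 0.96, unadjusted p = 0.0318, adjusted p = 0.171, limma). Without WT replicate 2 the adjusted p was 0.0436 for Col1a1 and 0.0209 for Col1a2 (limma), with log2 differences of 2.30 and 3.09. Leaving out WT replicate 1 instead gave 1.52 for Col1a1 and 1.58 for Col1a2, with adjusted p of 0.313 and 0.317 (limma).

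Type I collagen is built from 2 Col1a1 chains for each Col1a2 chain, and the RNA ratio is given here. Per transcript length and over all libraries, 488 reads of Col1a1 stood against 501 of Col1a2, a ratio of 0.88 (exact 95% interval 0.774 to 0.997, counting error only). The ratio was 0.81 (0.582 to 1.13) in WT and 0.89 (0.776 to 1.02) in Chd8L+/- libraries. The WT value rested on WT replicate 2, as 27 against 17 reads were left without it, a ratio of 1.43 (0.753 to 2.80) whose interval overlaps that of the full group. Col3a1 stood at 1.61 times Col1a1 per length (1.44 to 1.81, 739 against 488 reads). In the other genotype Chd8L+/- replicate 5 held 51.0% of the summed normalized counts of Col1a1 in its genotype, 49.4% of those of Col1a2 and 46.8% of those of Col3a1, and the ratio of Col1a1 to Col1a2 without it was 0.87 (0.718 to 1.06).

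Type IV collagen, the sheet-forming collagen of basement membranes, showed smaller differences. Col4a1 (chromosome 8, 11198423 to 11312826, minus strand) had 1.78, 30.4, 12.1, 13.9 and 10.03 normalized counts in WT and 12.7, 15.7 and 55.5 as lowest, median and highest in Chd8L+/- libraries, a log2 difference of 1.18 (standard error 0.57, unadjusted p = 0.0582, adjusted p = 0.220, limma). Replicates 1, 5 and 7 of Chd8L+/- were above every WT library, and the other 4 lay within the WT range. Col4a2 (chromosome 8, 11312805 to 11449287, plus strand) had 1.78, 15.2, 8.07, 1.98 and 11.3 normalized counts in WT and 2.80, 12.7 and 35.6 as lowest, median and highest in Chd8L+/- libraries, a log2 difference of 1.17 (standard error 0.62, unadjusted p = 0.0788, adjusted p = 0.253, limma). The same 3 libraries were the highest, and neither gene passed an adjusted p of 0.05 without WT replicate 2 by limma, where Col4a1 had 0.0571. Leaving out WT replicate 1 instead gave log2 differences of 0.68 for Col4a1 and 0.85 for Col4a2.

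The 2 type IV chains are transcribed away from each other from starts that overlap by 22 bases, shown here because a read there cannot be given to 1 gene without strand. The overlap is chr8:11312805-11312826 of GRCm38.p6, printed on the plus strand, which is the sense of Col4a2, with the letters GGGCGG in capitals.

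Col4a1 and Col4a2 start: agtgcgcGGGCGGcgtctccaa

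Over all libraries Col4a1 stood at 1.64 times Col4a2 per transcript length (exact 95% interval 1.35 to 2.003, 276 against 164 reads). The ratio was 1.79 (1.17 to 2.76) in WT and 1.60 (1.28 to 2.01) in Chd8L+/- libraries.

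Col6a1, a chain of the beaded filaments around mesenchymal cells, was at or below 3.97 normalized counts in 4 of 5 WT libraries. It lies on chromosome 10 from 76708792 to 76726168 on the minus strand, and had 0, 19.3, 1.01, 3.97 and 1.25 normalized counts in the 5 WT libraries against 4.55, 25.9 and 132 as lowest, median and highest in Chd8L+/- libraries. All 7 Chd8L+/- libraries were above the other 4 WT libraries, and 4 were above WT replicate 2. Its log2 difference was 2.67 (standard error 0.83, unadjusted p = 0.00638, adjusted p = 0.122, limma), rank 4 among the genes higher in Chd8L+/- libraries. Without WT replicate 2 it was 3.31 with an adjusted p of 0.00964 (limma).

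Sparc, which codes for a collagen-binding protein that aids fibre assembly, followed the fibrillar collagens. Sparc (chromosome 11, 55394500 to 55423183, minus strand) had 3.56, 52.8, 4.03, 12.9 and 12.5 normalized counts in WT and 14.2, 57.9 and 288 as lowest, median and highest in Chd8L+/- libraries. Again WT replicate 2 was the only WT library inside the Chd8L+/- range. Sparc had a log2 difference of 2.18 (standard error 0.75, unadjusted p = 0.0120, adjusted p = 0.129, limma), which was 2.72 with an adjusted p of 0.0155 (limma) without WT replicate 2.

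Dcn, which codes for decorin, a small proteoglycan that coats collagen fibrils, had the widest spread. Dcn (chromosome 10, 97479609 to 97518143, plus strand) had 3.56, 114, 9.07, 2.98 and 3.76 normalized counts in WT and 0.91, 69.9 and 419 as lowest, median and highest in Chd8L+/- libraries. WT replicate 2 was above 5 of the 7 Chd8L+/- libraries, and Chd8L+/- replicate 6, with 1 read, was the lowest library of all. Its log2 difference of 2.03 had a standard error of 1.23 (unadjusted p = 0.121, adjusted p = 0.315, limma), and without WT replicate 2 it was 2.91 (adjusted p = 0.0817, limma).

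Vim, which codes for the intermediate filament vimentin of mesenchymal cells and leukocytes, differed least. Vim (chromosome 2, 13573927 to 13582826, plus strand) had 144, 219, 142, 161 and 62.7 normalized counts in WT and 118, 159 and 329 as lowest, median and highest in Chd8L+/- libraries. Only Chd8L+/- replicate 5 was above WT replicate 2. For Vim the log2 difference was 0.38 (standard error 0.30, unadjusted p = 0.227, adjusted p = 0.444, limma), and it did not pass in any alternative run.

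Fn1, which codes for fibronectin, had the opposite direction and, in WT, the highest level of the 10 genes. Fn1 (chromosome 1, 71585520 to 71653200, minus strand) had 644, 117, 2942, 2787 and 1649 normalized counts in WT and 38.7, 94.3 and 617 as lowest, median and highest in Chd8L+/- libraries. Every WT library other than replicate 2 lay above all 7 Chd8L+/- libraries, and 4 of the 7 Chd8L+/- libraries lay below WT replicate 2. Fn1 had a log2 difference of -2.91 (standard error 0.80, unadjusted p = 0.00279, adjusted p = 0.121, limma), rank 8 from the lowest. Without WT replicate 2 it was -3.69 with an adjusted p of 0.00374 (limma). Apol7d overlaps Fn1 on the opposite strand, and the use of strand in counting is not given in the sources used here.

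With the two-sided exact permutation test over all 792 label assignments, whose smallest possible p is 0.00126, the single-gene p was 0.0139 for Col3a1, 0.0164 for Fn1, 0.0177 for Col6a1 and 0.0316 for Sparc. It was 0.0694 for Col1a2, 0.0833 for Col1a1, 0.0846 for Col4a1, 0.116 for Col4a2, 0.177 for Dcn and 0.317 for Vim in the same exact test. These p-values are not adjusted for the number of genes.

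**Figure D2:**
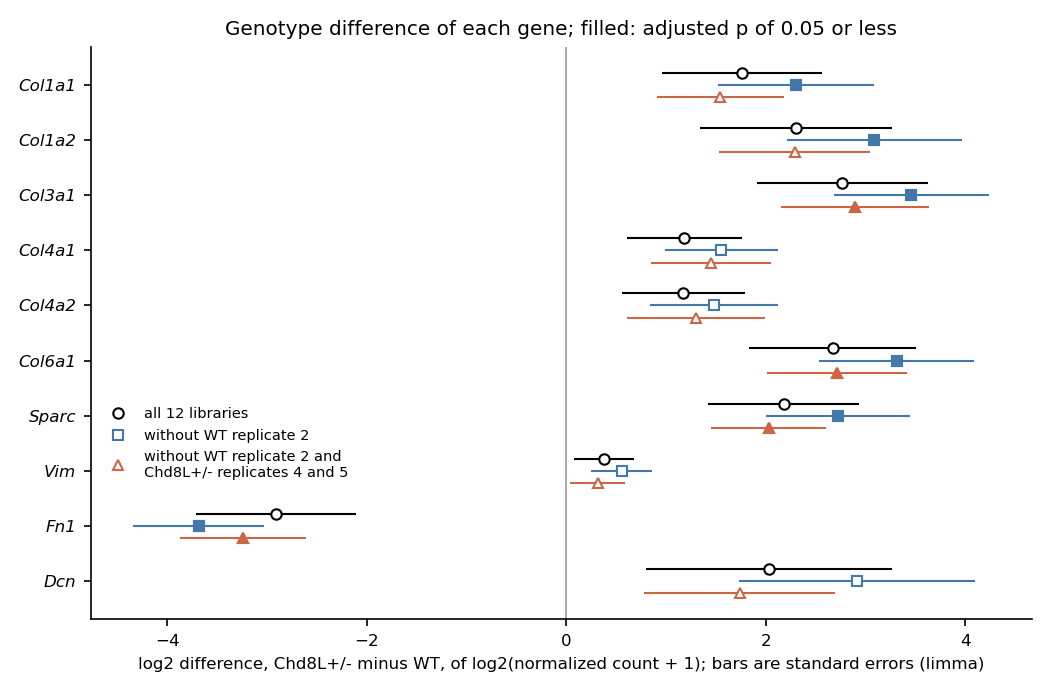
The horizontal axis gives the log2 difference of log2(normalized count + 1), Chd8L+/- minus WT, and bars are limma standard errors. Circles use all 12 libraries, squares leave out WT replicate 2, and triangles also leave out Chd8L+/- replicates 4 and 5. Filled symbols have an adjusted p of 0.05 or less, which holds for 0, 6 and 4 of the genes.

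The calls turned on single libraries. Without WT replicate 2, 6 of the 10 genes passed an adjusted p of 0.05 (limma), 5 higher (Col1a1, Col1a2, Col3a1, Col6a1 and Sparc) and 1 lower (Fn1), beside 27.6% of all genes and 14.0% higher. Without WT replicate 1, the lowest library of all in 6 of the 10 genes, none passed (limma, beside 0.0% of all genes). An unadjusted p of 0.05 or less (limma) was then found for 4 of the 10, beside 21.5% of all genes, with a median log2 difference of 1.55. Leaving out WT replicate 2 together with Chd8L+/- replicates 4 and 5, a choice made after the values were seen, left 4 of the 10 past the threshold (Col3a1, Col6a1, Sparc and Fn1), beside 18.9% of all genes. Leaving out only Chd8L+/- replicates 4 and 5, also chosen after the values were seen, left none past it (limma, beside 0.0% of all genes) and 3 at an unadjusted p of 0.05 or less, beside 17.7% of all genes, with a median log2 difference of 1.05. With a block for the first letter of the library names, Sparc (adjusted p = 0.0439, limma) and Fn1 (0.0434) passed, beside 3.52% of all genes. Counting models on the recovered reads gave 0 of the 10 with edgeR (adjusted p, beside 0.039% of all genes), where 5 had an unadjusted p of 0.05 or less beside 22.4%, and 3 with DESeq2 (Col6a1, Sparc and Fn1, beside 6.44%). Without WT replicate 2 these models, added after the values were seen, gave 7 (beside 26.3%) and 8 (beside 28.9%).

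**Figure D3:**
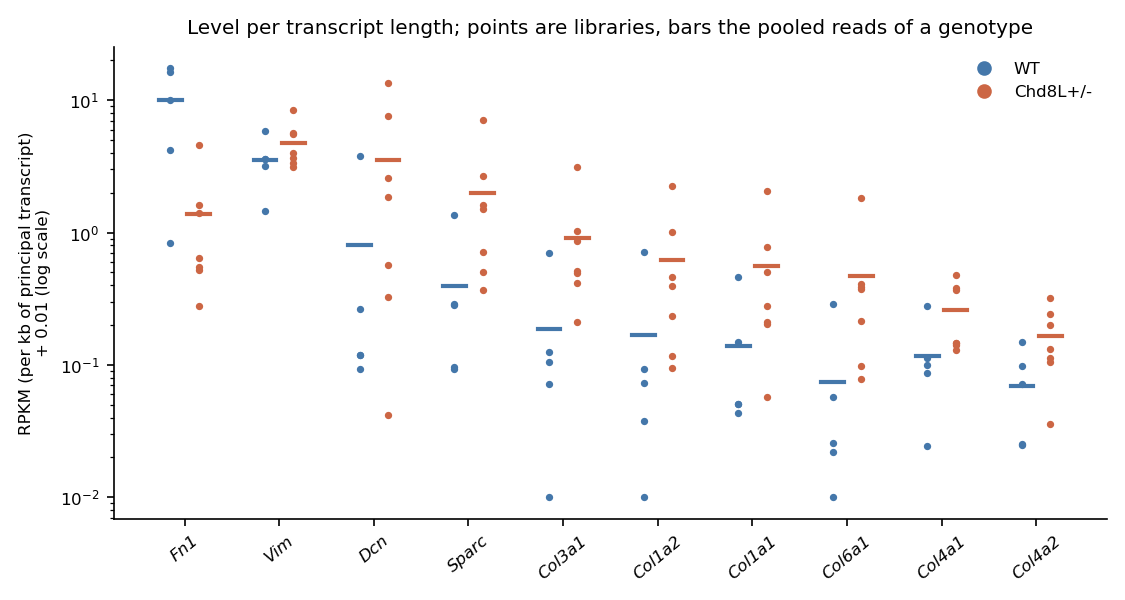
The vertical log axis gives RPKM, reads per kb of transcript at equal library depth, plus 0.01, for each of the 10 genes in order of level. Points are libraries and bars the pooled reads of a genotype. Fn1 is highest in WT at 10.1 (12.1 without WT replicate 2) and stands below Vim in Chd8L+/- libraries, at 1.37 against 4.73.

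Levels between genes can be compared per transcript length. In WT libraries Fn1 led with 10.1 RPKM (reads per kb of transcript at equal library depth), ahead of Vim with 3.54, Dcn with 0.79, Sparc with 0.38 and Col3a1 with 0.18. The other collagens followed, from 0.16 for Col1a2 and 0.13 for Col1a1 to 0.11 for Col4a1, 0.065 for Col6a1 and 0.059 for Col4a2. In Chd8L+/- libraries the order began with Vim at 4.73, Dcn at 3.54 and Sparc at 1.97, and Fn1 stood at 1.37, above Col3a1 at 0.91 and Col1a2 at 0.61. The WT order below Vim rested on WT replicate 2, without which Dcn stood at 0.14, below Sparc at 0.17, and Col4a1 at 0.070, above Col3a1 at 0.065, Col1a1 at 0.059, Col4a2 at 0.042, Col1a2 at 0.041 and Col6a1 at 0.019. Without Chd8L+/- replicate 5, Dcn stood at 2.04 in that genotype and Fn1, at 1.48, above Sparc, at 1.19. In both genotypes the library ranges of neighbouring genes in this order overlapped.

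Across the 12 libraries the genes other than Vim and Fn1 were positively correlated. The 28 pairs among these 8 genes had Pearson correlations of log2 values between 0.44 and 0.97, with a median of 0.86, from the same libraries and their depth. Col1a2 and Sparc were the closest pair, and Col4a2 and Dcn the least alike. Fn1 had negative correlations with all 9 other genes, from -0.80 with Col1a1 to -0.36 with Col4a2. Vim correlated with the 8 genes by 0.14 to 0.75. These correlations pool both genotypes, so a shared or opposite genotype difference adds to them. With the mean of the 8 genes Fn1 had -0.70, and -0.49 once group means were removed. Col4a2 had 0.68 with the mean of the other 7, and 0.55 once group means were removed. Chd8L+/- replicate 5 was highest in 9 genes, WT replicate 2 was the highest WT library in 9, and WT replicate 1 was the lowest of all in 6. Among Chd8L+/- libraries, replicate 6 was lowest in 6 of the 10 genes and highest in Fn1.

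The 10 tested genes outside the set whose log2 values were most like the mean of the standardized values of these genes were Bgn (Pearson r = 0.977), Sparcl1 (0.968), Plod2 (0.953), Adamdec1 (0.9498), Cav1 (0.948), Npnt (0.940), C1qa (0.928), Tns1 (0.924), Serpinh1 (0.917) and Col6a4 (0.916), over 12 libraries. Bgn codes for biglycan, Serpinh1 for the collagen chaperone HSP47 and Plod2 for a lysyl hydroxylase of collagen. C1qa, a complement subunit made by macrophages, and Cav1, the caveolin of endothelium and muscle, are not matrix genes. In a search added after the values were seen, the genes most like Fn1 were Il17rb (0.977), Basp1 (0.971), Prss53 (0.969), Matk (0.967) and Rac2 (0.965), and those most like Vim were Sun2 (0.953), Adgrl1 (0.953) and Lgals1 (0.923). Il17rb codes for a receptor chain for interleukin 25. The genes named here as most like Fn1 had log2 differences between -2.28 and -1.46. Their correlations pool both genotypes, so a genotype difference in the same direction as that of Fn1 adds to them. The paper lists Matk, written Matk1, among the tuft cell markers it found lower by RT-PCR in Chd8L+/- mice. Tuft cells belong to the epithelium, and the paper counted fewer of them in the small intestine of these mice but not in the colon. Whether the lower Fn1 level follows from fewer tuft cells was not tested.

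The 9 smooth muscle and pericyte markers, all in the table, summed to between 107 and 317 normalized counts in WT, where replicate 2 was highest, and to between 92.9 and 2405 in Chd8L+/- libraries, where replicate 5 was highest and replicate 6 lowest. In 4 Chd8L+/- libraries the sum was above every WT library. Of the 8 tested, 7 were higher and 1 lower, 2 of them (25.0%, beside 24.3% of all genes) at p of 0.05 or less before adjustment, with a median log2 difference of 1.58. The defining markers Acta2, Myh11 and Des, for actin, myosin and desmin of contractile cells, had log2 differences of 1.68 (adjusted p = 0.187, limma), 2.04 (0.212) and 1.42 (0.382). Their part in the collagen result was not tested.

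Fibroblast markers, 8 of 10 in the table, summed to between 102 and 220 normalized counts in WT and 70.1 and 501 in Chd8L+/- libraries, where replicate 5 was highest. Of the 5 tested, 1 (20%, beside 24.3% of all genes) was at p of 0.05 or less before adjustment (limma). That gene was Col6a2, higher in Chd8L+/- libraries, a collagen that is also counted among the other collagens below. Among the defining fibroblast markers, Pdgfra had between 0 and 21.0 normalized counts, below the level needed for a test, Pdgfrb had a log2 difference of 0.25 and Thy1 of 0.37. Endothelial markers, 13 of 14 in the table, summed to between 313 and 539 in WT and between 218 and 452 in Chd8L+/- libraries, with no Chd8L+/- library above the highest WT library. Of the 8 endothelial markers tested, 3 were higher and 5 lower, with a median log2 difference of -0.48 (limma). Only 1 (12.5%, beside 24.3% of all genes) was at p of 0.05 or less before adjustment, and it was lower. Of the defining endothelial markers, Pecam1 had a log2 difference of 0.14 (adjusted p = 0.856, limma), and Cdh5 and Kdr, with means under 10, were not tested. Cdh5, the cadherin of endothelial junctions, had between 0.89 and 4.96 normalized counts in WT and between 7.28 and 9.78 in Chd8L+/- libraries, while Kdr had between 0.89 and 12.5 and between 1.05 and 27.7. The Cdh5 groups did not overlap, beside 0.515% of all genes tested, at values of few reads. Leukocyte markers summed to between 3487 and 5429 in WT and 3565 and 6888 in Chd8L+/- libraries, where replicate 5 was highest. Of the 15 tested, 8 were higher and 7 lower, with a median log2 difference of 0.03 (limma). The defining one, the pan-leukocyte marker Ptprc, had the lowest log2 difference of this list, -0.64 (adjusted p = 0.187, limma). The 10 epithelial markers summed to between 173224 and 304086 in WT, where replicate 2 was lowest, and 167425 and 296289 in Chd8L+/- libraries. Their median sum was 269260 in WT and 198042 in Chd8L+/- libraries, and 1 Chd8L+/- library lay above the WT median. By limma 7 of these markers were lower and 3 higher in Chd8L+/- libraries, with a median log2 difference of -0.17. None of them passed an adjusted p of 0.05. The part of all these markers in the collagen result was not tested.

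**Figure D4:**
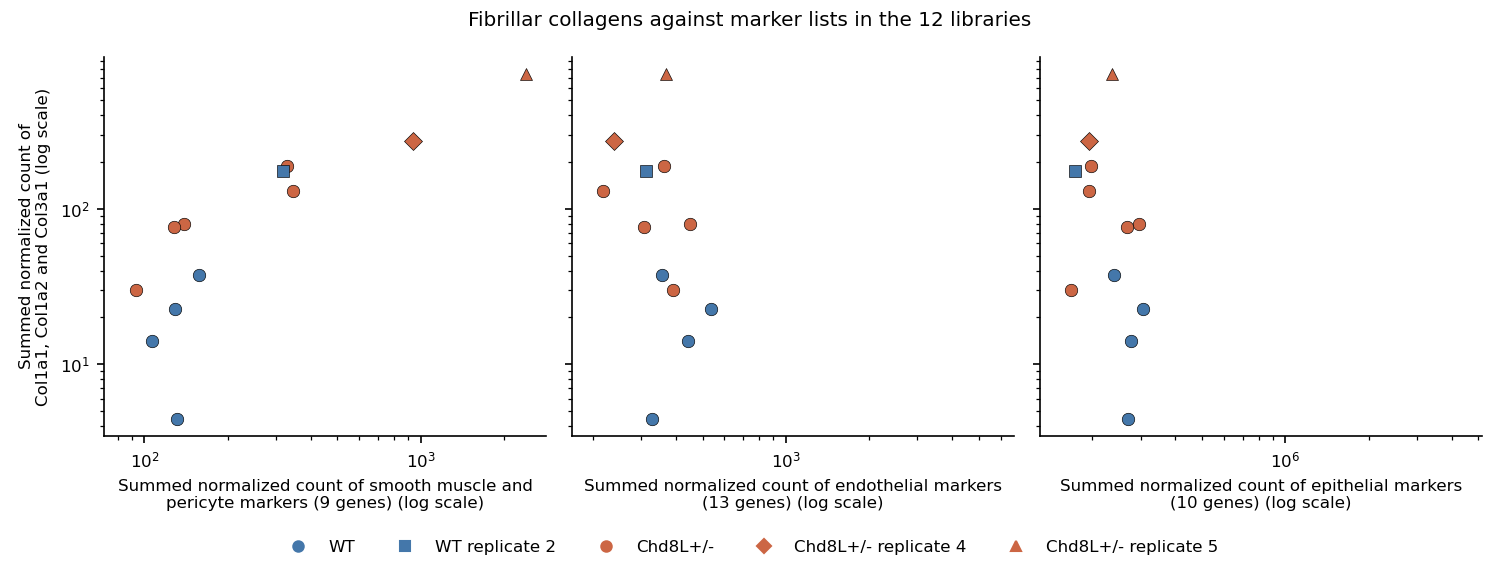
The vertical log axis gives the summed normalized count of Col1a1, Col1a2 and Col3a1 in each library, and the horizontal log axes give the sums of smooth muscle and pericyte, endothelial and epithelial markers. Each point is 1 of 12 libraries. The fibrillar sum ranges from 4.44 to 175 in WT and from 30.04 to 738 in Chd8L+/- libraries, and Chd8L+/- replicate 5 is highest for muscle markers, at 2405, but not for endothelial or epithelial markers. The same library is also highest for fibroblast markers, at 501, and leukocyte markers, at 6888, which are not drawn.

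The rest of the matrix was read from lists of other collagens, matrix glycoproteins, collagen processing, matrix turnover and matrix receptors. Of 135 genes listed, 108 were in the table and 72 were tested. None passed an adjusted p of 0.05 by limma or edgeR (DESeq2 called 4 of 108, beside 6.44% of all genes), and 23 had by limma an unadjusted p of 0.05 or less (31.9%), 19 higher and 4 lower, beside 24.3% of all genes. Their median log2 difference was 0.32. Among the genes named here and below, Loxl2, Bgn, Col6a2, Col6a4 and Timp3 had WT means under 10. They reached the minimum for a test only through the Chd8L+/- libraries. With WT replicate 2 left out, 24 of the 72 passed an adjusted p of 0.05 (limma), 18 higher and 6 lower, beside 27.6% of all genes, among them Itga2 (adjusted p = 0.00256), Hspg2 (0.00256), P4ha1 (0.00266), Loxl2 (0.00590), Col15a1 (0.0119), Bgn (0.0121) and Mmp9 (0.0241). Without WT replicate 3, 13 of the 72 had an unadjusted p of 0.05 or less, beside 13.8% of all genes. A block for the first letter of the library names brought 8 of the 72 past the adjusted threshold (limma), 5 higher and 3 lower, beside 3.52% of all genes.

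Among other collagens, 11 of 29 were tested, 3 higher and 1 lower (36.4% in all, beside 24.3% of all genes) at p of 0.05 or less before adjustment, with a median log2 difference of 0.38. Col6a2, the partner chain of Col6a1, had 7.70 ± 6.72 normalized counts in WT (SD, n = 5) against 28.5 ± 30.8 (SD, n = 7), a log2 difference of 1.70 (adjusted p = 0.160, limma), and Col6a4 had 1.85 (adjusted p = 0.147). Col15a1, a collagen of the basement membrane zone, went the other way, with 156 ± 74.0 normalized counts in WT (SD, n = 5) against 57.3 ± 34.1 (SD, n = 7) and a log2 difference of -1.48 (adjusted p = 0.140, limma).

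Of 23 matrix glycoproteins and proteoglycans tested, 6 were higher and 1 lower (30.4% in all, beside 24.3%) at p of 0.05 or less before adjustment, with a median log2 difference of 0.52. Bgn had a log2 difference of 2.07 (standard error 0.70, adjusted p = 0.127, limma), Hspg2, which codes for perlecan, 1.45 (standard error 0.40, adjusted p = 0.121) and Efemp2, a fibulin of elastic fibres, 0.86 (adjusted p = 0.152). WT replicate 2 again held the highest WT value of Bgn, at 25.4 normalized counts, against between 9.10 and 126 in Chd8L+/- libraries.

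Collagen processing split in both directions, 5 higher and 1 lower at p of 0.05 or less before adjustment among 13 tested (46.2% in all, beside 24.3%), with a median of -0.04. Loxl2, a lysyl oxidase-like enzyme that cross-links collagen, averaged 5.03 ± 2.14 normalized counts in WT (SD, n = 5) and 33.1 ± 18.3 in Chd8L+/- mice (SD, n = 7), a log2 difference of 2.37 (standard error 0.48, unadjusted p = 0.000215, adjusted p = 0.121, limma). Its groups did not overlap, beside 0.515% of all genes tested, as the highest WT library had 7.10 and the lowest Chd8L+/- library 7.28. That gap is smaller than 1 read, which was worth between 0.86 and 1.25 normalized counts in these libraries, and so lies within counting error. P4ha1, a prolyl 4-hydroxylase subunit, had 296 ± 188 normalized counts in WT (SD, n = 5) against 75.05 ± 21.4 (SD, n = 7), a log2 difference of -1.74 (adjusted p = 0.121, limma), and Colgalt1, which glycosylates collagen, had 0.42 (adjusted p = 0.121).

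Of 8 genes of matrix turnover tested, 2 were higher and 1 lower (37.5% in all, beside 24.3%) at an unadjusted p of 0.05 or less. Mmp9, the gelatinase, had 14.4 ± 12.6 normalized counts in WT (SD, n = 5) against 37.4 ± 15.7 (SD, n = 7), a log2 difference of 1.93 (adjusted p = 0.135, limma), while Mmp15, a membrane-bound metalloproteinase, had -1.11 (adjusted p = 0.159) and Timp3, an inhibitor of these enzymes, 1.35 (adjusted p = 0.195). Of 17 matrix receptors tested, 3 were higher and 0 lower (17.6%, below the 24.3% of all genes) before adjustment at p of 0.05 or less by limma. Itga2, the collagen-binding integrin subunit, had 109 ± 46.1 normalized counts in WT (SD, n = 5) against 233 ± 43.0 (SD, n = 7), a log2 difference of 1.15 (standard error 0.22, unadjusted p = 0.000119, adjusted p = 0.118, limma), with 6 of 7 Chd8L+/- libraries above every WT library. Itga5, the subunit of the fibronectin receptor, had 0.93 (adjusted p = 0.180, limma) and Cd44, a hyaluronan receptor, 0.44 (adjusted p = 0.187).

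**Figure D5:**
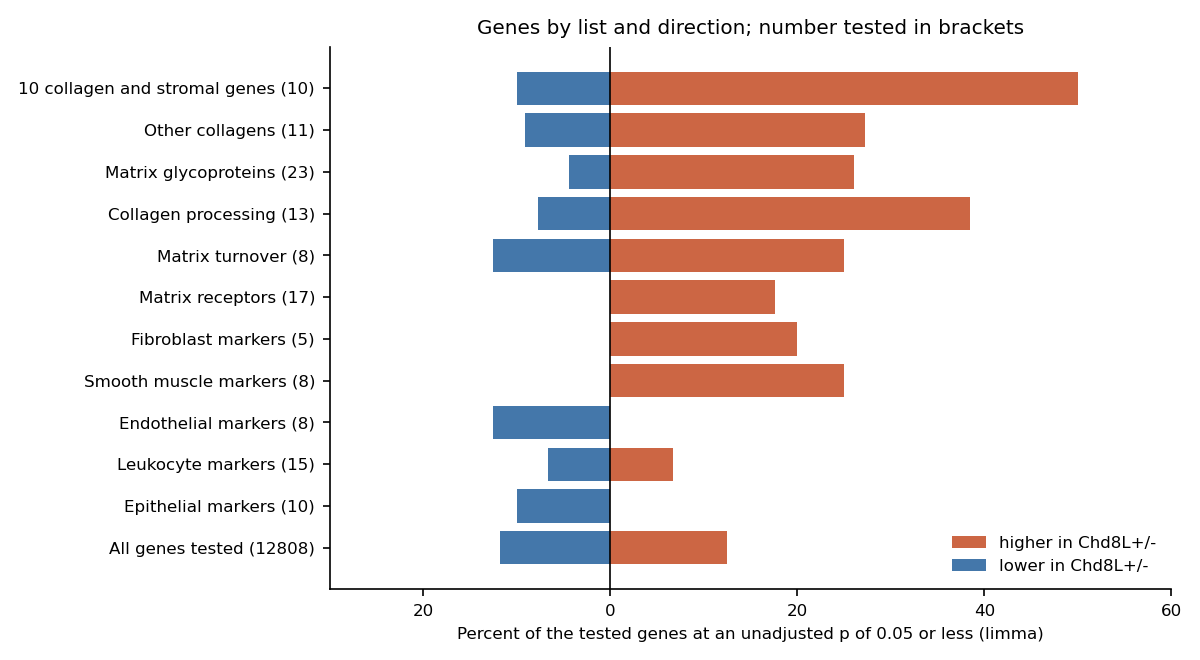
Bars give the percent of the tested genes of each list at an unadjusted p of 0.05 or less (limma), to the right for genes higher and to the left for genes lower in Chd8L+/- libraries, with the number tested in brackets. The 10 collagen and stromal genes stand at 50% higher and 10% lower, beside 12.5% and 11.8% of all 12808 genes.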

How the data were processed

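Poly(A) RNA of gut epithelial cells from 5 WT and 7 Chd8L+/- male mice was sequenced to reads that the authors aligned by Tophat2 (mm10) before a DESeq2 pipeline. The deposited signal of a gene is its read count over a size factor for that library, computed by the authors. Counting program, annotation, strand and gene filter are not given in the sources used here. The table has 14244 rows, 0 columns of other samples, and 21 names turned into dates. Reads were recovered for 100% of the values (largest deviation from a whole number 0.000392, tolerance 0.01), with totals of 15691662 to 20761315 per library. Counting error is largest for genes with few reads.

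Genotypes were compared with limma 3.58.1 (R 4.3.3; lmFit, eBayes with trend) on log2(value + 1), over the 12808 genes whose mean reached 10, adjusted by Benjamini-Hochberg, with no block. The 1 added before the log makes changes of weakly expressed genes smaller, but this scale differed from the counting models in both directions. Col3a1 had 2.77 by limma against 2.30 by edgeR and 2.30 by DESeq2, and Col1a1 had 1.76 against 2.01 and 2.00. Single genes also had a two-sided exact permutation test (scipy 1.17.1). The steps were tested on simulated data. Replicates are separate mice. Alternatives were a pseudocount of 0.5 or 5, no filter, a mean of at least 50, quantile normalization, length and GC trends removed (splines, 4 degrees of freedom), edgeR 4.0.16 and DESeq2 1.42.0 on recovered reads, blocks by replicate number or library-name letter, and each library left out.

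The genes and lists were chosen with earlier results of these data known. Named are all 10 genes, the 3 genes with the smallest p in each matrix list, defining cell markers, the 10 genes most like the mean of the set, and Chd8. Genes most like Fn1 and Vim were added after values were seen. Positions and transcript lengths (1 principal transcript per gene) come from GENCODE M21 on GRCm38, where 99.3% of genes had a length, and promoters from RefSeq on GRCm38.p6. A glial marker list is not reported here.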

Additional observations from a re-analysis of the deposited data

Results flagged for a closer look

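Of 38 groups of values looked at for a library far from the others, 1 stood out, where chance gives about 1 in 20 (1.9 of 38). It was Dcn in WT libraries, where replicate 2 was at 6.84 on the log2(normalized count + 1) scale and the nearest WT library at 3.33. The same library was the highest WT library for 9 of the 10 genes.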

How the results depend on the processing

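No direction of the 10 genes was reversed by any alternative, and the median log2 difference of the 10 ran from 1.05 to 3.24 over 26 alternatives. The number of the 10 genes past an adjusted p of 0.05 was 0, and it was 3 with DESeq2 on the recovered reads (Col6a1, Sparc and Fn1, beside 6.44% of all genes), 2 with the library-name letter as a block and 0 with edgeR, which had 5 of the 10 at p of 0.05 or less before adjustment. Chosen after seeing the data were edgeR and DESeq2 without WT replicate 2, which gave 7 and 8 of the 10 (beside 26.3% and 28.9% of all genes), leaving out WT replicate 2 and Chd8L+/- replicates 4 and 5, which gave 4 (beside 18.9%), and leaving out only Chd8L+/- replicates 4 and 5, which gave 0. At an unadjusted p, 6 of the 10 became 3 of 5 still tested with a mean of at least 50 (beside 26.2% of all genes), and 3 without Chd8L+/- replicates 4 and 5 (beside 17.7%). Of the other matrix genes, 23 of 72 at an unadjusted p (beside 24.3% of all genes) became 10 of 43 with a mean of at least 50 (beside 26.2%). Without Chd8L+/- replicates 4 and 5 the count was 12 of 72 (beside 17.7%). Without WT replicate 2 it was 36 of 72 by edgeR (beside 39.8%) and 56 of 108 by DESeq2 (beside 38.7%). With all libraries these models gave 23 of 72 (beside 22.4%) and 34 of 108 (beside 23.8%), so the share of all genes rose too. Fewer genes were tested with the higher minimum; the other causes were not tested.

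Leaving out 1 library at a time gave 0 to 6 of the 10 genes at an adjusted p and 4 to 9 at an unadjusted p, and 13 to 39 other matrix genes. WT replicate 2 gave the 6 and the 39 (beside 27.6% and 40.3% of all genes), and WT replicate 3 gave the 13 (beside 13.8%). Median log2 differences of the 10 were then 1.40 to 2.51.

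The replicate number did not pair the libraries. Correlations of deviations from the group means for replicates 1 to 5 were 0.19, -0.34, -0.13, -0.17 and -0.23, and 1 of 5 numbers matched best with its own. With the replicate number as a block, 0 of the 10 genes passed an adjusted p, 6 had an unadjusted p of 0.05 or less, 18 other matrix genes did (beside 18.2% of all genes, and 0 genes at an adjusted p), and the median log2 difference was 2.33.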
